A study of Mus musculus with 24 samples.

Results

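The 5 fibroblast growth factor (FGF) receptor genes of the mouse, Fgfr1, Fgfr2, Fgfr3, Fgfr4 and Fgfrl1, were taken by name from a table of 53946 genes, and all 5 were found and passed the filter on low counts in every comparison. Their polyA RNA was sequenced from the ventral otocyst, which holds the cochlea of the embryonic inner ear, at embryonic day 14.5. Libraries were made by translating ribosome affinity purification (TRAP), which pulls ribosomes down with anti-GFP antibodies through a ribosomal protein, L10a, fused to eGFP, and from RNA labelled pre-TRAP. L10a-eGFP was expressed in the Fgf20-Cre lineage, so that tagged ribosomes come from cells with a history of Fgf20-Cre. The libraries formed 4 groups: TRAP from Fgf20-/- embryos (mut, n = 8), TRAP from Fgf20+/- embryos (het, n = 8), pre-TRAP from Fgf20-/- embryos (mut, n = 4) and pre-TRAP from Fgf20+/- embryos (het, n = 4). All were of the strain C57BL/6J x 129X1/SvJ, each group was divided evenly over 2 batches labelled experiment 1 and experiment 2, and 3 to 7 embryos of the same genotype went into each library. The controls were het embryos, which carry a mutant Fgf20 allele themselves, and no library was labelled wild type. The p-values measure the spread between these pooled libraries.

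FGF receptors 1 to 4 are transmembrane tyrosine kinases. An FGF, bound with heparan sulphate, brings receptors together; they phosphorylate each other and the docking protein FRS2, and through RAS the ERK cascade is switched on, which raises ETS transcription factors and its own inhibitors of the Sprouty and DUSP families. Alternative exons of Fgfr1, Fgfr2 and Fgfr3 give b forms, typical of epithelium, and c forms, typical of mesenchyme, which bind different ligands, and FGF20 is of the FGF9 subfamily, which prefers the c forms. Fgfrl1 encodes a receptor without the kinase domain. In the developing cochlea Fgfr1 is needed in the sensory precursors and Fgfr3 marks pillar cells and other supporting cells, while outside the epithelium Fgfr2 and Fgfr3 are known in mesenchyme and cartilage. Counts per gene, as used here, do not separate the b and c forms.

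Libraries, numbered 1 to 24 in the labels, held 30745200 to 53374800 counts. Fgf20, the targeted gene, had 0.818 to 3.03 CPM in TRAP mut libraries and 3.13 to 5.92 CPM in TRAP het libraries, and 0.138 to 0.294 CPM in pre-TRAP mut libraries and 0.381 to 1.70 CPM in pre-TRAP het libraries. CPM are counts scaled to a common library size, after TMM normalization. Every mut library was below every het library prepared in the same way, although the difference did not pass the edgeR test across all genes (adjusted p = 0.188 in TRAP and 0.837 in pre-TRAP), while DESeq2 called it in TRAP (adjusted p = 0.0110). Which part of the gene the mutant allele lacks is not given in the sources used here. Compared with pre-TRAP, TRAP libraries were higher in 7 of 7 prosensory, 10 of 10 neuron, 4 of 6 hair cell, 4 of 7 supporting cell and 5 of 8 otic epithelium markers. They were lower in 8 of 10 mesenchyme, 7 of 9 cartilage, 7 of 9 muscle and 5 of 7 Schwann cell markers, and in 5 of 5 markers each of endothelium, erythroid cells, macrophages and melanocytes. The opposite direction was called for 2 otic epithelium, 1 supporting cell, 1 mesenchyme, 1 muscle and 2 Schwann cell markers. The summed mesenchyme markers ran from 272 to 1256 CPM in TRAP libraries and from 953 to 1435 CPM in pre-TRAP libraries. For the cartilage markers the sums were 577 to 5657 CPM in TRAP and 2302 to 4566 CPM in pre-TRAP. TRAP libraries 5 and 6, at 5297 and 5657 CPM, lay above every pre-TRAP library.

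All 5 receptors had less RNA in TRAP than in pre-TRAP libraries. Of 24242 genes tested, 31.2% were lower by the same rule, an adjusted p below 0.05 in edgeR's quasi-likelihood test. The members' median was -1.59 on the log2 scale. Values ranged from -1.91 for Fgfr2 to -0.43 for Fgfrl1. The share of all genes whose libraries do not overlap between groups was not counted, so such separation is given as a description. In RNA of whole tissue, fewer cells of a type and less RNA per cell cannot be told apart.

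**Figure D1:**
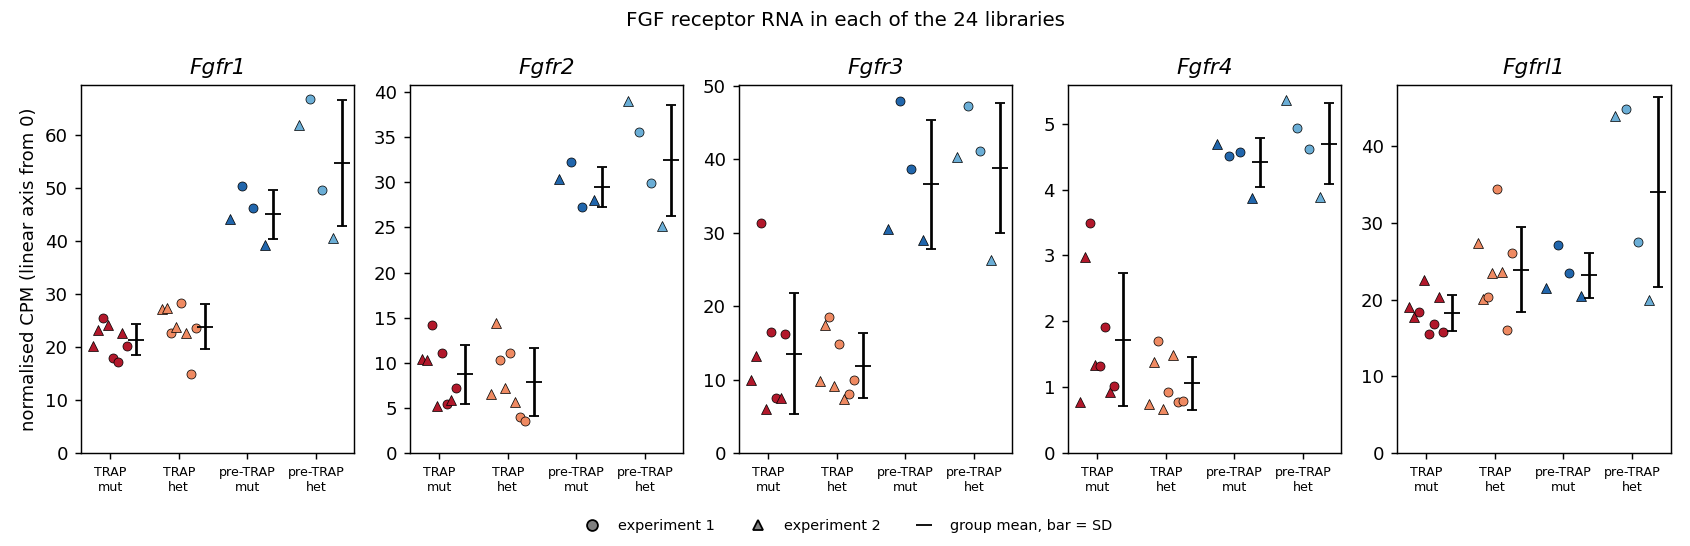
Normalised CPM of each FGF receptor gene (y axis, linear from 0) in the 24 libraries by group (x axis). Circles are experiment 1, triangles experiment 2, and the bar beside each group is the mean with its SD. Fgfr1, Fgfr2 and Fgfr4 sit lower in every TRAP library than in any pre-TRAP library, while Fgfr3 and Fgfrl1 overlap. The share of all genes that separate in this way was not counted.

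Fgfr1, the receptor required in cochlear sensory precursors, had 25.5, 18.0, 17.2 and 20.3 CPM in the TRAP mut libraries of experiment 1 and 20.2, 23.2, 24.2 and 22.7 CPM in those of experiment 2. The TRAP het libraries had 22.8, 28.4, 15.0 and 23.6 CPM in experiment 1 and 27.2, 27.3, 23.8 and 22.7 CPM in experiment 2. The pre-TRAP mut libraries had 50.5 and 46.3 CPM in experiment 1 and 44.2 and 39.4 CPM in experiment 2, and the pre-TRAP het libraries 67.0 and 49.6 CPM, then 62.0 and 40.6 CPM. No TRAP library reached the lowest pre-TRAP library. Fgfr1 in TRAP averaged 0.453 of its pre-TRAP mean, a log2 difference of -1.15 (SE 0.107, adjusted p = 6.48e-10 in edgeR). The Fgfr1 locus overlaps 2 noncoding RNA genes in the annotation, and the strand setting of the counting was not given.

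Fgfr2, known for epithelial and mesenchymal forms, showed the largest estimate of the 5. It had 14.2, 11.1, 5.43 and 7.22 CPM in TRAP mut libraries of experiment 1 and 10.4, 10.3, 5.18 and 5.91 CPM in those of experiment 2. TRAP het libraries had 10.3, 11.1, 4.04 and 3.60 CPM, then 6.59, 14.4, 7.26 and 5.70 CPM. Pre-TRAP mut libraries had 32.2 and 27.3 CPM, then 30.4 and 28.1 CPM, and pre-TRAP het libraries had 35.6 and 29.9 CPM, then 39.0 and 25.2 CPM. The groups by method did not overlap. Fgfr2 in TRAP averaged 0.268 of its pre-TRAP mean (log2 difference -1.91, SE 0.200, adjusted p = 5.90e-09 in edgeR).

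Fgfr3, the receptor of pillar cells and of growing cartilage, had 31.3, 16.5, 7.49 and 16.2 CPM in TRAP mut libraries of experiment 1 and 10.0, 13.3, 6.05 and 7.47 CPM in experiment 2. TRAP het libraries had 18.6, 14.9, 8.04 and 9.89 CPM, then 9.83, 17.5, 9.08 and 7.40 CPM. Pre-TRAP mut libraries had 48.0 and 38.7 CPM, then 30.6 and 29.0 CPM, and pre-TRAP het libraries 47.3 and 41.2 CPM, then 40.4 and 26.3 CPM. Of the 16 TRAP libraries, 15 lay below every pre-TRAP library, and the exception was mut library 6 at 31.3 CPM. Fgfr3 in TRAP averaged 0.337 of its pre-TRAP mean (log2 difference -1.59, SE 0.195, adjusted p = 9.39e-08 in edgeR). Reads of the annotated copy Fgfr3-ps were 0 in all 24 libraries.

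Fgfr4, a receptor best known from liver and developing muscle, rested on few reads, with 27 counts in the TRAP library that had fewest. In TRAP mut it ran from 0.767 to 3.49 CPM with a median of 1.33, and in TRAP het from 0.666 to 1.70 CPM with a median of 0.857. It had 3.87 to 4.69 CPM in pre-TRAP mut and 3.88 to 5.35 CPM in pre-TRAP het. The 2 methods did not overlap, and the log2 difference was -1.77 (SE 0.221, adjusted p = 1.23e-07 in edgeR).

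Fgfrl1 differed least. It had 15.5 to 22.6 CPM in TRAP mut with a median of 18.1, and 16.1 to 34.4 CPM in TRAP het with a median of 23.5. In pre-TRAP it had 20.5 to 27.1 CPM in mut and 19.9 to 44.9 CPM in het. The groups overlapped, and 7 of 16 TRAP libraries lay below every pre-TRAP library. The log2 difference was -0.43 (SE 0.133, adjusted p = 0.00673 in edgeR). It did not pass without pre-TRAP het library 19 (-0.30, adjusted p = 0.0692) or in experiment 2 alone (-0.21, adjusted p = 0.363).

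The methods were also compared within each genotype. In mut, 4 of the 5 receptors were lower in TRAP, against 24.1% of all genes tested, and the log2 differences were -1.08 for Fgfr1, -1.76 for Fgfr2, -1.47 for Fgfr3 and -1.37 for Fgfr4. For Fgfrl1 in mut the difference was -0.34 with a 95% interval of -0.73 to 0.05 (adjusted p = 0.145 in edgeR). In het, 5 of 5 were lower, against 24.2% of all genes, and the log2 differences were -1.21, -2.05, -1.70, -2.17 and -0.52 for Fgfr1, Fgfr2, Fgfr3, Fgfr4 and Fgfrl1. The het call of Fgfrl1 was lost without pre-TRAP het library 17 or 19 or TRAP het library 5, and in either experiment alone. Whether the genotypes differed in the TRAP over pre-TRAP difference was tested directly as an interaction. It was called for 0% of 24242 genes by edgeR, 302 having an unadjusted p under 0.05 (580 and 582 without pre-TRAP het libraries 21 and 23), and for 0 genes by DESeq2 and limma, so 0 of 5 receptors passed. The largest estimate was that of Fgfr4, 0.80 with an interval of -0.14 to 1.74.

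Since the same gene lengths stand on both sides, the shift of each receptor between methods can be set against that of another. For the 10 pairs, the log2 ratio of each pair, from CPM plus 0.5, was compared between TRAP and pre-TRAP by an exact two-sided permutation of libraries within experiments (245025 arrangements, adjusted over the 10 pairs), a test chosen after the values were seen. Relative to Fgfrl1, every other receptor was lower in TRAP: Fgfr2 by a log2 difference of -1.54 (adjusted p = 6.12e-05), Fgfr3 by -1.24 (adjusted p = 0.000558), Fgfr4 by -1.12 (adjusted p = 0.00145) and Fgfr1 by -0.73 (adjusted p = 4.08e-05, with the smallest unadjusted p that the arrangements can give). Fgfr1 was higher in TRAP relative to Fgfr2, by 0.81 (adjusted p = 0.00145), and relative to Fgfr3, by 0.51 (adjusted p = 0.0166). Fgfr2 relative to Fgfr3 differed by -0.30 (adjusted p = 0.00972). The 3 pairs of Fgfr1, Fgfr2 or Fgfr3 over Fgfr4 did not pass, with differences of 0.39, -0.42 and -0.12 and adjusted p of 0.0806, 0.0795 and 0.576. The added 0.5 shrinks the change of Fgfr4, which was near 1 CPM in TRAP. With nothing added, these 3 differences were 0.75, -0.12 and 0.21 (adjusted p = 0.0154, 0.652 and 0.453 in the same exact permutation test), so that Fgfr1 was then higher in TRAP relative to Fgfr4, and Fgfr4 relative to Fgfrl1 was at -1.49 (adjusted p = 0.000990). With 0.5 added, Fgfr1 over Fgfr4 also passed without TRAP mut library 4, 6 or 13, and Fgfr2 over Fgfr4 without TRAP mut library 2 or TRAP het library 3 or 9, with adjusted p of 0.0297 to 0.0493.

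**Figure D2:**
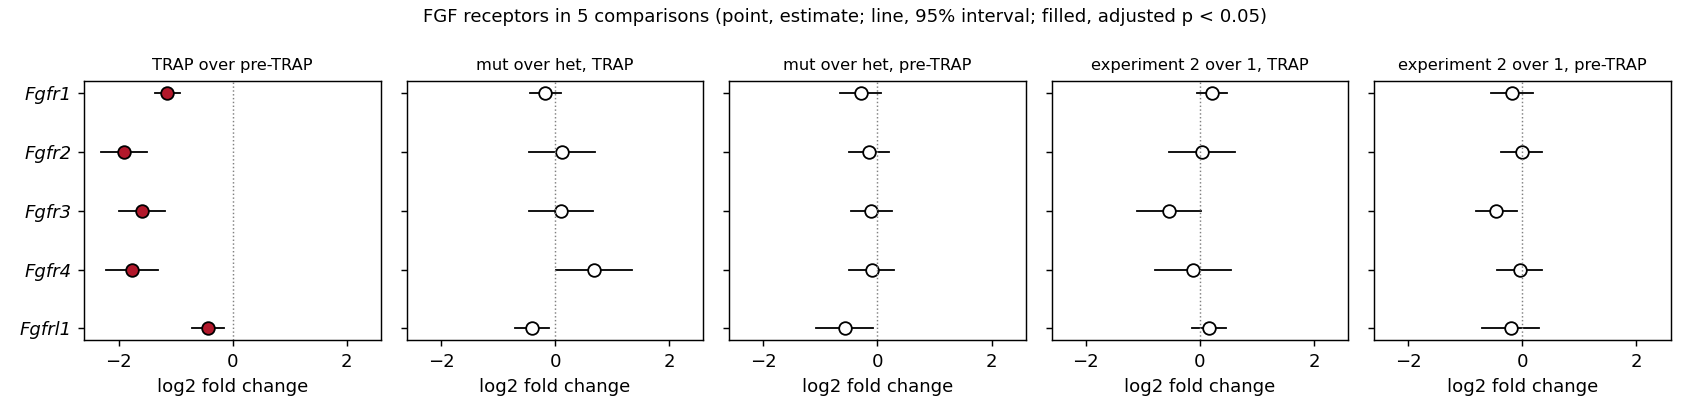
Log2 fold changes of the 5 receptors (x axis) in 5 comparisons, with the 95% interval as a line; filled points passed an adjusted p of 0.05 in edgeR. In the panel of TRAP over pre-TRAP all 5 points lie below 0, from -1.91 to -0.43, and no point is filled in the other panels.

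The receptors at the ends of this range are shown with the 250 bases before the RefSeq start of each (GRCm38.p6), Fgfr2 on the minus strand at chr7:130266809-130267058 and Fgfrl1 on the plus strand at chr5:108693979-108694228. Capitals mark GGGCGG read on either strand, the box bound by Sp1 family factors.
Fgfr2: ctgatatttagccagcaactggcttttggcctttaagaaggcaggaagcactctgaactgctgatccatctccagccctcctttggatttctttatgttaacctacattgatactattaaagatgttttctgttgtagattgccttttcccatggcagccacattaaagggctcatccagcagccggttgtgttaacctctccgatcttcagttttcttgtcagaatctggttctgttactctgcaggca
Fgfrl1: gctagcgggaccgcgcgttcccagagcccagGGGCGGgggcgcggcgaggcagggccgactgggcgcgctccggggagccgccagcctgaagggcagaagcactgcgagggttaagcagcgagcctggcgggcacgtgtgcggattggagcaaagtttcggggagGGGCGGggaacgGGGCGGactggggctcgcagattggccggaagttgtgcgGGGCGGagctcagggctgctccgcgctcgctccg
The Fgfr2 window held 0 of these boxes and 44% G and C, and the Fgfrl1 window 4 boxes and 73.6%. Among 32851 promoters of the same length, 32.7% held the box, and the median G and C content was 52.4%. The windows of Fgfr3, of which the table gives 2, held 3 and 2 boxes, and that of Fgfr4 held 2. Fgfr1 was not examined here, so the windows were 1 each of Fgfr2, Fgfr4 and Fgfrl1 and 2 of Fgfr3. TATAAA, found in 12.4% of all promoters, was in none of these 5 windows on either strand. The ETS core CCGGAAG, in 6.91% of promoters, was present in 1 of the 5, that of Fgfrl1. These matches describe letters in the windows, and other start sites of these genes were not examined.

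Mesenchyme markers moved with Fgfr2 and Fgfr3 across the TRAP libraries. The marker level was the mean log2 CPM of 10 genes, among them Pou3f4, Tbx18, Twist1, Prrx1 and Pdgfra, and 8 of the 10 were lower in TRAP than in pre-TRAP, with a median of -1.94. None of the 10 was at 0. Over the 16 TRAP libraries, Fgfr2 followed it with Pearson r = 0.847 and Spearman rho = 0.841 (permutation p adjusted over 10 relations 5e-05 and 0.0005), and r was 0.882 without the 2 libraries farthest from the median. Fgfr3 gave r = 0.813 and rho = 0.656 (adjusted permutation p = 0.0003 and 0.0179), and 0.644 without those 2 libraries. Within experiments r was 0.832 and 0.904 for Fgfr2 and 0.875 and 0.867 for Fgfr3. For Fgfr4, r was 0.666 and rho 0.547 (adjusted permutation p = 0.0119 and 0.0602), so that it did not pass by rank. Its r was 0.445 without the 2 libraries, both of experiment 1, and 0.754 and 0.541 within experiments 1 and 2.

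Fgfr1 gave r = 0.435 and rho = 0.424 (adjusted permutation p = 0.111 and 0.149), and Fgfrl1 gave r = -0.07 and rho = -0.04 (adjusted permutation p = 0.789 and 0.969). Neither relation passed. With the 9 otic capsule cartilage markers, of which 7 were lower in TRAP, r was 0.865 and rho 0.888 for Fgfr3 (adjusted permutation p = 5e-05 and 0.0004), and r was 0.702 and rho 0.688 for Fgfr2 (adjusted permutation p = 0.00433 and 0.0137). Without the same 2 libraries r was 0.742 and 0.648, and within experiments it was 0.875 and 0.926 for Fgfr3 and 0.655 and 0.850 for Fgfr2. For Fgfr4 the cartilage markers gave r = 0.611 and rho = 0.356 (adjusted permutation p = 0.0217 and 0.219), so that it did not pass by rank. Its r was 0.307 without the 2 libraries, and 0.660 and 0.527 within experiments 1 and 2. Fgfr1 gave r = 0.442 and rho = 0.529 (adjusted permutation p = 0.111 and 0.0628) and Fgfrl1 r = -0.09 and rho = -0.01 (adjusted permutation p = 0.789 and 0.969), and neither passed. Their r within experiments 1 and 2 was 0.590 and 0.476 for Fgfr1, and 0.070 and -0.447 for Fgfrl1. The part of these cells in the receptor differences was not tested. Leaving out the 4 TRAP libraries richest in mesenchyme marker RNA cannot test it, since they were chosen by a level that Fgfr2 and Fgfr3 followed. The TRAP over pre-TRAP differences were then -1.19, -2.16, -1.89, -2.14 and -0.39 for Fgfr1, Fgfr2, Fgfr3, Fgfr4 and Fgfrl1, and all 5 passed.

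**Figure D3:**
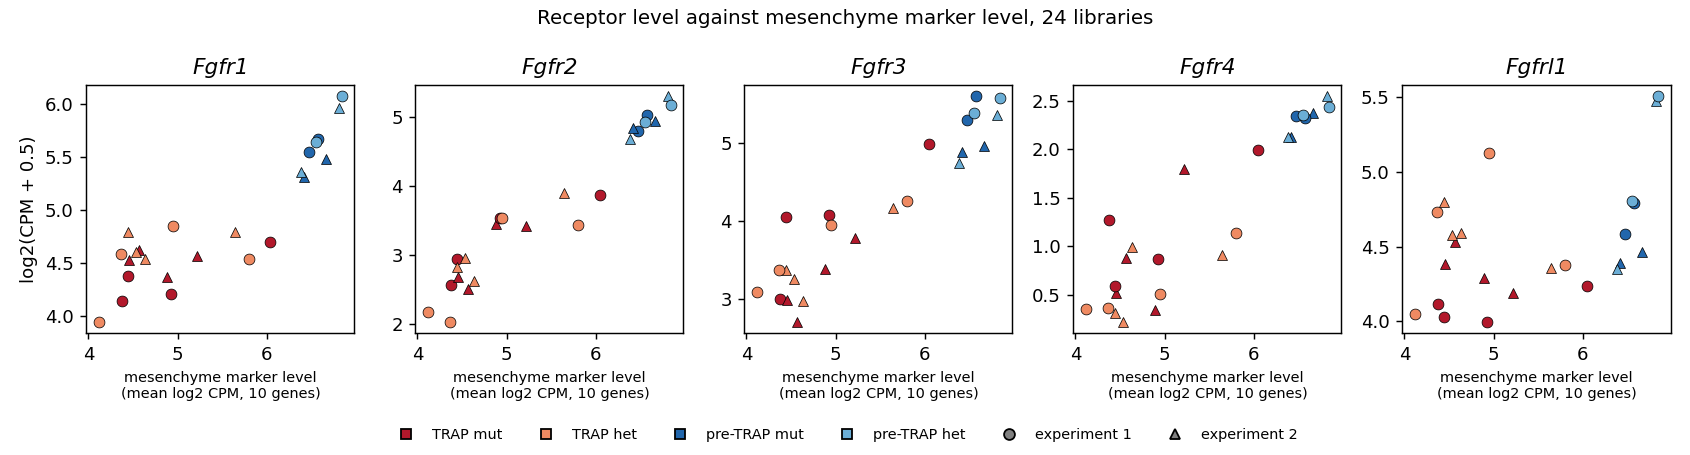
Level of each receptor (y axis, log2 of CPM plus 0.5) against the mean log2 CPM of 10 mesenchyme markers (x axis) in the 24 libraries, coloured by group; circles are experiment 1 and triangles experiment 2. Among TRAP libraries Fgfr2 and Fgfr3 climb with the markers (r of 0.847 and 0.813), while Fgfrl1 does not (r of -0.07). Within experiments 1 and 2, r of Fgfrl1 was 0.112 and -0.638.

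The genes most like each receptor over the 24 libraries, among 11938 genes and by Pearson r of log2 CPM, differed between receptors. This is a description, since the points share their group and depth. They were Pth1r, the parathyroid hormone receptor (0.973), Igfbp4 and Marveld1 for Fgfr1, and Pdgfra, the PDGF receptor of mesenchyme (0.985), Rnf144b and Emp1 for Fgfr2. For Fgfr3 they were Hapln1, which links cartilage proteoglycan (0.965), Cd109 and Matn1. For Fgfr4 they were Ctsk (0.939), Pcolce and Cald1, and for Fgfrl1 they were Ppm1m (0.905), Rnf169 and Ryk. After the mean of each group and experiment was removed, the nearest genes were Ankrd11, Ckap4 and Scarb2 for Fgfr1, Nr3c1, Rnf144b and Prrx1 for Fgfr2, Plagl1, Ddr2 and Susd5 for Fgfr3, B3gnt9, Mcam and Lrpprc for Fgfr4, and Maco1, Plxna1 and Ctdsp1 for Fgfrl1. Among the receptors themselves, these deviations were closest between Fgfr2 and Fgfr3 (r = 0.896) and between Fgfr1 and Fgfrl1 (r = 0.812), and for Fgfr4 and Fgfrl1 r was 0.06.

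Loss of Fgf20 was compared within each method. In TRAP, 0.0742% of 21577 genes were called and 0 of 5 receptors were. In pre-TRAP, 0.00455% of 21954 genes were called and again 0 of 5 receptors. Fgfrl1 had the lowest unadjusted p of the 5 in both. Its log2 difference of mut over het was -0.41 in TRAP (95% interval -0.70 to -0.11, unadjusted p = 0.00876, adjusted p = 0.933) and -0.57 in pre-TRAP (interval -1.07 to -0.07, unadjusted p = 0.0277, adjusted p = 0.837), from edgeR. All 8 TRAP mut libraries lay below the TRAP het mean and all 4 pre-TRAP mut libraries below the pre-TRAP het mean, but the groups overlapped. The share of all genes with such a pattern was not counted. All 4 pre-TRAP mut libraries also lay below the het mean for Fgfr1, Fgfr2 and Fgfr4, so that part does not set apart Fgfrl1. The pre-TRAP difference was -0.28 without het library 17 (unadjusted p = 0.201, adjusted p = 1.00 in edgeR), and it ran to -0.75 without het library 23. Within experiments the TRAP difference was -0.54 in experiment 1 and -0.25 in experiment 2.

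For Fgfr4 in TRAP the log2 difference was 0.68 (interval 0.01 to 1.35, unadjusted p = 0.0462, adjusted p = 1.00 in edgeR), and it was 0.41 without the 4 libraries rich in mesenchyme markers and 0.44 without mut library 4. For Fgfr1 the intervals ran from -0.44 to 0.10 in TRAP and from -0.66 to 0.07 in pre-TRAP. For Fgfr2 they ran from -0.45 to 0.70 and from -0.51 to 0.21, and for Fgfr3 from -0.46 to 0.66 and from -0.46 to 0.25. The TRAP estimates of Fgfr2 and Fgfr3 changed sign between the experiments, 0.40 and 0.49 in experiment 1 and -0.11 and -0.26 in experiment 2. A test of that difference called 0% of 21577 genes in edgeR, 455 having an unadjusted p under 0.05, and 0 genes in DESeq2 and limma, so 0 of 5 receptors. That count of 455 was 287 without TRAP het library 3 and 693 to 1239 without TRAP mut library 4 or 13 or TRAP het library 1, 5 or 12.

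Experiment 2 was also set against experiment 1. It was called for 23% of genes in TRAP and 14.7% in pre-TRAP, and for 0 of 5 receptors in either. Fgfr3 stood nearest the threshold, with log2 differences of -0.54 in TRAP (interval -1.10 to 0.02, adjusted p = 0.157) and -0.46 in pre-TRAP (interval -0.81 to -0.10, adjusted p = 0.0844), from edgeR. The pre-TRAP difference passed in DESeq2 (-0.47, adjusted p = 0.0415), in limma with quality weights (-0.53, adjusted p = 0.0162) and without pre-TRAP het library 17 (-0.58, adjusted p = 0.0415 in edgeR). The TRAP difference passed without TRAP het library 3 (-0.72, adjusted p = 0.0359).

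Other genes of the pathway were counted by role between TRAP and pre-TRAP, and the log2 differences given here had standard errors of 0.0828 to 0.266 and adjusted p of at most 0.0042 in edgeR. Of all genes tested, 27.9% were higher in TRAP and 31.2% lower, against which the counts are to be read. Of 15 secreted ligands tested, 8 were higher in TRAP and 3 lower. Among them Fgf10, a ligand of the b forms, averaged 125 CPM in TRAP mut, 128 CPM in TRAP het, 18.5 CPM in pre-TRAP mut and 19.7 CPM in pre-TRAP het, a log2 difference of 2.73. Fgf20 differed by 2.73 and Fgf5 by 3.33. Since Fgf20-Cre marked the tagged cells, the Fgf20 difference is not independent of how those cells were chosen. The ligands that were lower were Fgf2 at -1.69, Fgf7 at -1.51 and Fgf18 at -1.48 and were named after their values were seen. All of them were scarce. In TRAP mut and TRAP het they averaged 0.923 and 1.26 CPM (Fgf2), 0.494 and 0.612 CPM (Fgf7) and 1.05 and 1.12 CPM (Fgf18). In pre-TRAP mut and pre-TRAP het they averaged 3.02 and 3.89 CPM, 1.64 and 1.48 CPM, and 2.71 and 3.23 CPM. Of 8 membrane partners and carriers tested, 3 were higher, among them the adhesion molecules L1cam (1.83) and Cdh2 (1.04), and 4 were lower, among them Flrt2 (-2.08) and Flrt3 (-2.03). Kl and Klb, the klotho coreceptors, were too low to test.

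Within the cell, 11 of 21 adaptor and ERK cascade genes were higher in TRAP and 7 lower, the lower ones at a share near that of all genes. Within het alone 5 were higher and 5 lower, where 4729 and 5869 of all 24242 genes were, so the het counts were near those shares. Within mut alone 11 were higher and 5 lower, where 5287 and 5848 of all genes were. The adaptor Frs3 was higher by 1.47, Map2k1, the ERK kinase MEK1, by 1.21 and Mapk3, ERK1, by 0.99. The adaptors Shc1 and Frs2 were lower, by -1.38 and -0.85. Of 11 feedback inhibitors, 4 were higher, such as Dusp4 (1.87), and 4 lower, such as Spry4 (-0.81), both close to the shares among all genes. Of the ETS factors, Etv4 was higher by 1.01 and Etv1 and Etv5 were lower, at -1.19 and -0.31. The Etv5 difference did not pass in either experiment alone. It was -0.60 in mut (adjusted p = 0.000349 in edgeR) and -0.02 in het (adjusted p = 0.896), and the interaction of -0.57 did not pass (unadjusted p = 0.00400, adjusted p = 1.00). Esrp1 and Esrp2, splicing regulators that favour the b exon, were higher in TRAP by 1.34 and 0.99, as was Rbfox2 by 0.71, and Ptbp1 was lower, at -0.73. Of 43 other receptor tyrosine kinases tested, 9 were higher and 26 lower with a median of -0.61, against a median of -1.59 for the 5 FGF receptors.

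**Figure D4:**
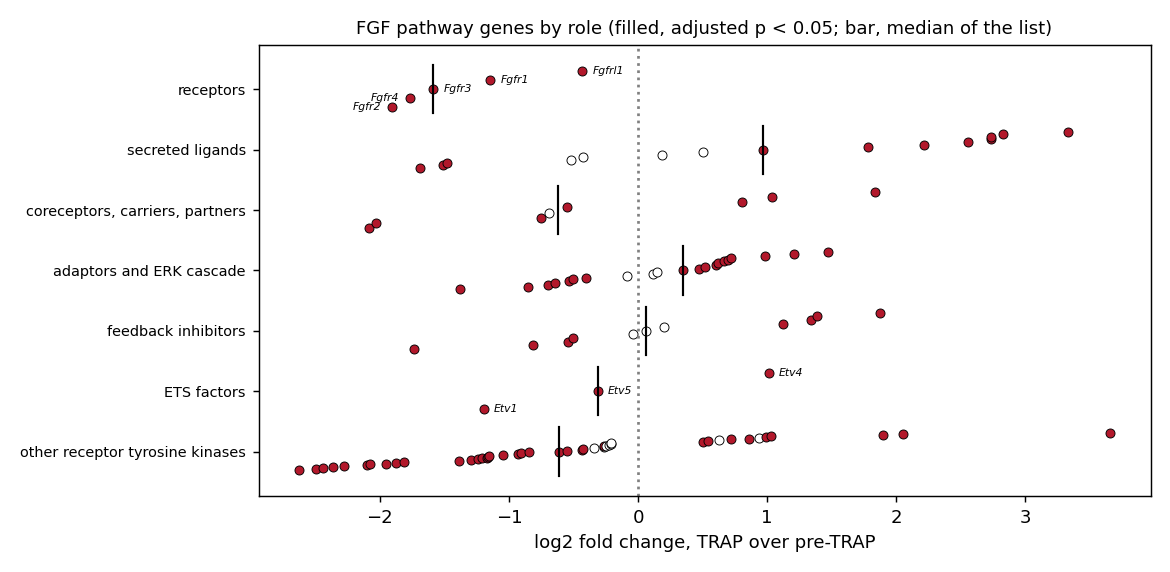
Log2 fold change of TRAP over pre-TRAP (x axis) for genes of the FGF pathway by role (y axis); each point is a gene, filled where the adjusted p was under 0.05, and the bar is the list's median. All 5 receptors lie left of 0, while 8 of 15 ligands are filled and right of it.

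Between genotypes, 1 gene of these lists passed in TRAP and 0 in pre-TRAP. Dusp6, a phosphatase that inactivates ERK, had 27.5 to 40.6 CPM in TRAP mut and 35.9 to 76.5 CPM in TRAP het, and fell by 0.79 on the log2 scale (SE 0.139, adjusted p = 0.0327 in edgeR). The call was lost, with adjusted p up to 0.0965, when any of mut libraries 2, 8, 10, 13, 14 and 16 or het libraries 3, 7, 11, 12 and 15 was left out, and the difference then stayed between -0.81 and -0.70. Libraries of experiment 1 by themselves gave -0.75 and those of experiment 2 gave -0.82, neither passing (adjusted p = 0.925 and 1.00), and the call was also lost without experiment in the model (-0.79, adjusted p = 0.0570). In pre-TRAP it was -0.07 (adjusted p = 0.924), and the interaction with method was -0.70 (adjusted p = 1.00 in edgeR). The ETS factors Etv1, Etv4 and Etv5 had TRAP differences of -0.73, -0.62 and -0.56 with adjusted p of 0.0508, 0.148 and 0.0886 in edgeR. All 3 passed in DESeq2 (adjusted p = 0.00125, 0.0175 and 0.00352). Of the 10 other settings, DESeq2 among them, Etv4 stayed uncalled in 9, Etv5 in 8 and Etv1 in 4.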

How the data were processed

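The authors deposited unnormalized read counts for each Ensembl gene in each library. STAR, DESeq2 and the build GRCm38.p5 are named, per the submitters' processing notes; annotation, counter and strand setting are not given in the sources. Symbols matched 53274 of 53946 identifiers. Totals were 30745200 to 53374800 counts.

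The main tool was edgeR 4.0.16 under R 4.3.3, with TMM scaling, filterByExpr at a minimum count of 10, quasi-likelihood tests and Benjamini-Hochberg adjustment over all genes tested (called under 0.05). Models held genotype and experiment. No label ties libraries together, so none were paired. In the 68 pairs from the same group, chi-square divided by its degrees of freedom was 23.8 to 234, and none was a copy. On simulated data for genotype in TRAP (21577 genes), 94.3% of changes of 2 fold and 28.6% of 1.5 fold were recovered. The simulation gave all genes the same dispersion of 0.05 and no experiment effect. These shares therefore do not apply to genes of wider spread, such as Fgfr2 and Fgfr4 (SE 0.276 and 0.322 for genotype in TRAP). Permutations used scipy 1.17.1 and numpy 2.4.6.

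Alternatives were DESeq2 1.42.0, its scaling, limma 3.58.1 with quality weights, no filter, other covariates, each experiment alone and each library left out; leaving out 4 mesenchyme-rich libraries, and for receptor pairs omitting the pseudocount or a library, were added after seeing the data. Members and lists were chosen with earlier results of these data known. From each pathway list up to 3 called genes per direction with a mean of at least 2 CPM could be named, and some of these are printed. Etv1, Etv4, Etv5 and Fgf20 between genotypes were named after their values were seen. So were Fgf2, Fgf7 and Fgf18 between methods, which did not reach that mean.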

Additional observations from a re-analysis of the deposited data

Results flagged for a closer look

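Of 20 groups examined for a library far from the others, 2 stood out, and chance flags about 1 in 20. Fgfr1 was lowest in TRAP het library 12, at 15.0 CPM, and the gap to the next library was 0.577 of the group's range. Fgfr3 was highest in TRAP mut library 6, at 31.3 CPM, with a gap of 0.588 of the range. Library 6 also had the highest mesenchyme and cartilage marker levels of the TRAP libraries, 6.04 and 7.34 on the log2 scale. The part of those cells in its Fgfr3 value was not tested.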

How the results depend on the processing

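Fgfr1, Fgfr2, Fgfr3 and Fgfr4 passed as lower in TRAP under all 9 other settings and all 24 left-out libraries, with log2 differences of -1.36 to -0.90, -2.18 to -1.85, -1.89 to -1.57 and -2.14 to -1.76 over the settings. Fgfrl1 did not pass in experiment 2 alone (-0.21) and ran from -0.53 to -0.30 with a library left out, the call being lost without library 19. In het it was -0.61 in experiment 1 alone, -0.37 in experiment 2 alone and -0.45 without the 4 mesenchyme-rich libraries, none passing. With a library left out it ran from -0.72 to -0.28 in het. The call was lost without pre-TRAP het library 17 or 19 or TRAP het library 5. In mut it passed in limma (-0.37). No receptor passed between genotypes or in an interaction under any setting run. Signs turned for values near 0, as follows. For genotype in TRAP, Fgfr2 was -0.11 and Fgfr3 -0.26 in experiment 2 alone, and with a library left out they ran from -0.0026 to 0.32 and from -0.11 to 0.27. For genotype in pre-TRAP, Fgfr2, Fgfr3 and Fgfr4 ran from -0.26 to 0.0061, from -0.21 to 0.058 and from -0.18 to 0.018 with a library left out. For genotype by method, Fgfr2 was -0.0065 and Fgfr3 -0.13 in experiment 2 alone and Fgfrl1 -0.043 in experiment 1 alone; Fgfr1 ran from -0.032 to 0.26 and Fgfrl1 from -0.038 to 0.37 with a library left out. For genotype by experiment, Fgfr1 was 0.0049, but -0.019 with all 24 libraries, -0.00900 with DESeq2, -0.00901 with its scaling and -0.018 without the filter; it ran from -0.14 to 0.16 and Fgfr4 from -0.94 to 0.055 with a library left out. For experiment in TRAP, Fgfr2 was -0.0058 with all 24 libraries and ran from -0.16 to 0.17, Fgfr3 from -0.72 to -0.32 and Fgfr4 from -0.36 to 0.11 with a library left out. For experiment in pre-TRAP, Fgfr3 was -0.47 in DESeq2 and -0.53 in limma and ran from -0.58 to -0.36, Fgfr2 from -0.12 to 0.10 and Fgfr4 from -0.13 to 0.031. With nothing added to CPM, Fgfr3 over Fgfr4 between methods was 0.21, against -0.12. Dusp6 for genotype in pre-TRAP was 0.053 in experiment 1 alone and ran from -0.14 to 0.033 with a library left out. The cause of these changes was not tested. Genes called for genotype in TRAP numbered 16, but 53 in DESeq2, 31 in limma, 27 without the filter, 26 with mesenchyme level as a covariate, 4 without experiment and 2 in either experiment alone, and 6 to 16 with a library left out. For genotype in pre-TRAP they numbered 1, but 2 in DESeq2, 0 in experiment 2 alone or without experiment, and 1 to 2 with a library left out. Without the filter 1 gene was called in each interaction. The method within het called 10598 genes, but 6172 and 5828 in experiments 1 and 2 alone, and within mut 11135, but 5743 and 7264. Experiment in pre-TRAP called 1995 to 4925 with a library left out. The order of levels between receptors was not run, since transcript lengths were not used here. No paired analysis was possible because no 2 libraries share a replicate number.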
